A study of Mus musculus with 4 samples.

Results

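The genes described here are the histone cluster genes of the mouse, taken as every gene of the deposited table whose symbol begins with Hist1h, Hist2h, Hist3h or Hist4h and whose exon length is above 0. They numbered 68 of the 32555 genes with an exon length. By the class of histone they encode, 6 were genes of the linker histone H1 and 19, 18, 12 and 13 were genes of the core histones H2A, H2B, H3 and H4. By symbol 55 were Hist1 genes, whose cluster lies on chromosome 13, 10 were Hist2 genes on chromosome 3, 2 were Hist3 genes on chromosome 11, and Hist4h4 on chromosome 6 was the only Hist4 gene. Hist1h2al, counted by its symbol, is annotated as a processed pseudogene at chr13:51202727-51203065, and Hist1h2bh and Hist1h2bm had no match in the GENCODE annotation.

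RNA was sequenced from mouse adipose-derived regenerative cells (ADRCs), mesenchymal cells grown from inguinal and axillary fat, in 2 groups of 2 libraries. The 6F group was passage 2 ADRCs of the reporter strain, given as C57BL/6-Tg (Myh6-EGFP) MG3Tm, in which the promoter of the cardiac alpha myosin heavy chain gene Myh6 drives GFP. These cells received 6 factors by lentiviral transfer and were sorted for GFP by flow cytometry 3 weeks later, so the group holds the cells in which that promoter was active, and the labels do not name the factors. The ADRC group was passage 2 cells labelled C57BL/6J, from mice of 8 weeks, without the factors or the sort recorded for the 6F group. Sample titles describe these ADRCs as a positive control for GFP, although C57BL/6J carries no such reporter. Transduction, time in culture, sorting and labelled strain therefore differ together between the groups and cannot be told apart. The letters a and b name the libraries within a group and imply no order or pairing, and nothing in the labels says that they came from separate cultures.

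Most histone protein is made from replication-dependent genes, which are switched on together when a cell copies its DNA. Their messages have no introns and no poly(A) tail, and end in a short stem-loop that is bound by the stem-loop binding protein SLBP. The messages are broken down when DNA synthesis stops. Many near-identical gene copies encode the same protein, and H2A and H2B genes often sit head to head on a shared promoter. Some cluster genes can also give longer, polyadenylated messages in cells that have left the cell cycle. The libraries were made from total RNA after removal of ribosomal RNA, a procedure that does not select on the poly(A) tail.

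The 6F libraries a and b held 7593772 and 6986223 exon reads and the ADRC libraries 2273897 and 2662128. The file headers carry lane tag 1 for 6F library a and lane tag 2 for the other libraries. A fit within lane tag 2 therefore has 1 6F library and no 6F spread, and that library is assumed to vary like the ADRC libraries. The median log2 fold change of the tested members was -4.30 in that fit, against -4.46 with all 4 libraries. Its counts of calls describe the fit only and do not test for an effect of lane. Within lane tag 2, 59 of 61 tested members passed the threshold, 57 of them lower and 2 higher in 6F cells, where 32.8% of all genes tested in that fit were lower and 35.0% higher. Of 8 macrophage markers 7 were tested, with 0 higher and 3 lower in 6F cells. With all 4 libraries, 24.2% of all genes tested were higher and 22.8% lower. The summed level of the macrophage markers was 12.6 and 113 CPM in 6F libraries a and b, against 257 and 274 CPM in the ADRC libraries, and Ptprc, Adgre1 and Tyrobp had 0 reads in 6F library a. Of these sums Lyz2 gave 4.10 and 81.7 CPM in 6F cells and 167 and 170 CPM in ADRCs. Endothelial markers summed to 21.7 and 42.8 CPM in 6F cells and 40.9 and 44.1 CPM in ADRCs, with 1 of 5 tested higher and 2 lower, against the same shares of all genes. Of 10 mesenchymal markers 4 were higher and 5 lower, against the same shares, and the marker sum was 7248 and 10080.3 CPM in 6F cells against 16229 and 14313 CPM in ADRCs. Most of that sum was Col1a1, with 5675 and 8195 CPM in 6F cells and 13539 and 11775 CPM in ADRCs. CPM here and below are exon reads per 1000000, on library sizes adjusted by TMM, a scaling that evens out differences in composition. The part of other cell types in the histone values was not tested.

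The stem-loop was looked for by its consensus, 16 letters of which 4 may be any base, on the sense strand of GENCODE M21 transcripts (GRCm38). It was found in 33 of the 66 members with a matched transcript, against 46 of 21901 protein-coding genes in all (0.210%). No match says only that these letters are not in the annotated transcript, many of which stop at the end of the coding sequence. The windows of 4 members with different values are shown, with the stem-loop letters in capitals and 5 bases on each side where the transcript has them. Hist1h1c was the member with most reads in 6F cells, Hist2h3c1 was higher in 6F cells, and Hist1h3d and Hist1h4m were among the members that fell furthest. They lie at chr13:23739507-23739532 (plus strand), chr3:96247322-96247347 (plus), chr13:23576239-23576264 (plus) and chr13:21812124-21812147 (plus).
Hist1h1c: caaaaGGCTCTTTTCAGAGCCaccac
Hist2h3c1: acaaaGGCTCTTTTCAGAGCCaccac
Hist1h3d: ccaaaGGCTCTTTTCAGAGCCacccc
Hist1h4m: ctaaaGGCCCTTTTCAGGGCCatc
The 16 stem-loop letters of Hist1h1c, Hist2h3c1 and Hist1h3d are identical, although the first was not past the threshold, the second was higher and the last was lower in 6F cells. In the annotated transcripts printed here, 840 bases follow the stem-loop letters of Hist1h1c, 752 those of Hist1h3d and 3 those of Hist1h4m. In the 1825-base transcript of Hist2h3c1, 1167 bases follow them. The transcript of Hist1h3d does not have the exon length counted in the deposited table.

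Promoters were read from RefSeq (GRCm38.p6), from 250 bases before to 50 after the gene start, for 59 members. The CCAAT box, searched as CCAAT on both strands, was present in 50 of 59 member promoters against 37.4% of all 32851 promoters. By class it was in 5 of 5 H1, 18 of 18 H2A, 14 of 14 H2B and 10 of 10 H3 promoters, and in 3 of 12 H4 promoters. TATAAA was in 34 of 59 against 13.6% of all promoters, and the octamer ATGCAAAT in 12 of 59 against 1.74%, in 7 H2A and 5 H2B promoters and in 0 of any other class. The promoters of 4 members are shown because their genes went different ways. The motifs and their reverse complements are in capitals, and a match describes letters and not a bound site.
Hist1h3d, chr13:23575513-23575812 (plus strand): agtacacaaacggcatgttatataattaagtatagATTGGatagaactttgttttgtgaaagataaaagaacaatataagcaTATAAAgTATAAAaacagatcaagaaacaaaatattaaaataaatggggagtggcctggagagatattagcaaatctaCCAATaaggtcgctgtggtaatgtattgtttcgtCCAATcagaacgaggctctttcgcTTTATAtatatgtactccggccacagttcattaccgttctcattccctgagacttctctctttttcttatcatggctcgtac
Hist2h2ac, chr3:96220831-96221130 (minus strand): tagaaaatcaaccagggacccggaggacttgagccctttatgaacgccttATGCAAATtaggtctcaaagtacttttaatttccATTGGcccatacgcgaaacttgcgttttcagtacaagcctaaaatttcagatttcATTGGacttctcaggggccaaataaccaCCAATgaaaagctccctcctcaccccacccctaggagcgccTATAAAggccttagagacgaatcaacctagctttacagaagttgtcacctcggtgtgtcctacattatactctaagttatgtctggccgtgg
Hist1h1c, chr13:23738557-23738856 (plus strand): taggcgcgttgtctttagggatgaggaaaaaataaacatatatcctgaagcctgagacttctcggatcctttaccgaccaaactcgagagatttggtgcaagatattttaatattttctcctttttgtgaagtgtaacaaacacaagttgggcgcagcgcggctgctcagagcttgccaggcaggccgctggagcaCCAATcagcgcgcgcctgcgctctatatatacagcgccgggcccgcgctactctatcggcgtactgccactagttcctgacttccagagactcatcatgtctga
Hist2h3c1, chr3:96246435-96246734 (plus strand): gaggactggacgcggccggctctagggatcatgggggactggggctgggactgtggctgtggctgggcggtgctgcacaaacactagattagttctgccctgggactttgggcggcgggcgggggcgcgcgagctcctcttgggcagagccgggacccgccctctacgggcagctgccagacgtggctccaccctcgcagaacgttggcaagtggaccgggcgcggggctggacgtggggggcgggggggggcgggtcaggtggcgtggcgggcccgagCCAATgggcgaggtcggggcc
In Hist1h1c the CCAAT box starts at position -54 from the gene start. In Hist2h3c1 the only match starts at 29, after the annotated start, and no TATAAA was found. The promoter of its copy Hist2h3c2, which was lower in 6F cells, is alike: its only match starts at 14, with no TATAAA. The Hist2h2ac window also spans the start of Hist2h2be on the other strand, and its octamer starts at position -200.

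The comparison of the 6F libraries with the ADRC libraries asked how the histone messages of the sorted, factor-treated cells differed from those of untreated ADRCs. Most histone cluster genes were lower in the 6F cells, 56 of the 62 that could be tested, and the other 6 were genes of the H1, H2B, H3 and H4 classes. Summed over the 68 members, exon reads were 8145 and 6374 in 6F libraries a and b, against 12340 and 14669 in the shallower ADRC libraries a and b. This was 0.107% and 0.0912% of exon reads in 6F cells and 0.543% and 0.551% in ADRCs. After scaling, the sum was 919 ± 90.6 CPM in 6F cells and 5938 CPM in ADRCs, with an SD of 3.6 CPM (n = 2 each), 6.46-fold lower in 6F cells. In RNA from whole cultures and sorted pools, fewer cells that make a message and less of it per cell cannot be told apart.

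At gene level, 62 members passed the filter on low counts and were tested with edgeR's quasi-likelihood test. P-values were adjusted over all 12573 genes tested (Benjamini-Hochberg), with a threshold of 0.05. In 6F cells 56 were lower, against 22.8% of all genes tested, 2 were higher, against 24.2%, and 4 were not past the threshold. The median log2 fold change, 6F over ADRC, was -4.46 over the 62 members, or -4.44 with the 3 members without reads in 6F cells set at their bounds, and 0.07 over all genes tested. Of the tested members 16 were under the filter's minimum in both 6F libraries, and 1 was under it in both ADRC libraries, so these passed through 1 group only. Their direction followed from the filter, and they are counted in the totals given here. Over all 68 members, tested or not, both 6F libraries lay below both ADRC libraries in 56, against 16.2% of all 32555 genes, and above them in 5, against 22.9%. The remaining 7 overlapped. Among the 62 tested members the 6F libraries lay below in 56, against 37.4% of all genes tested, and above in 3, against 40.5%. Among the 53 called members with reads in both groups, the fitted fall ranged from 2.26-fold to 280.1-fold with a median of 22.8-fold. The largest was that of Hist1h4m, and 89.8% of its 50-base windows also occur in its copy Hist1h4n. That copy had a log2 fold change of -1.46, so the single value of Hist1h4m is uncertain. Falls of at least 8-fold, bounds included, were found in 46 members, against 2.28% of all genes tested, and falls of at least 16-fold in 38, against 1.17%.

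The 6 members that were not tested had few reads or none. Hist1h2aa, Hist1h2ao and Hist1h2ba had 0 reads in each of the 4 libraries. Hist1h1t, which encodes the linker histone of the testis, had 3 and 2 reads in 6F cells and 0 and 3 in ADRCs. Hist1h2al had 2 and 1 reads in 6F cells and Hist3h2ba 1 and 1, both with 0 in either ADRC library, which is too few for a comparison at this depth.

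**Figure D1:**
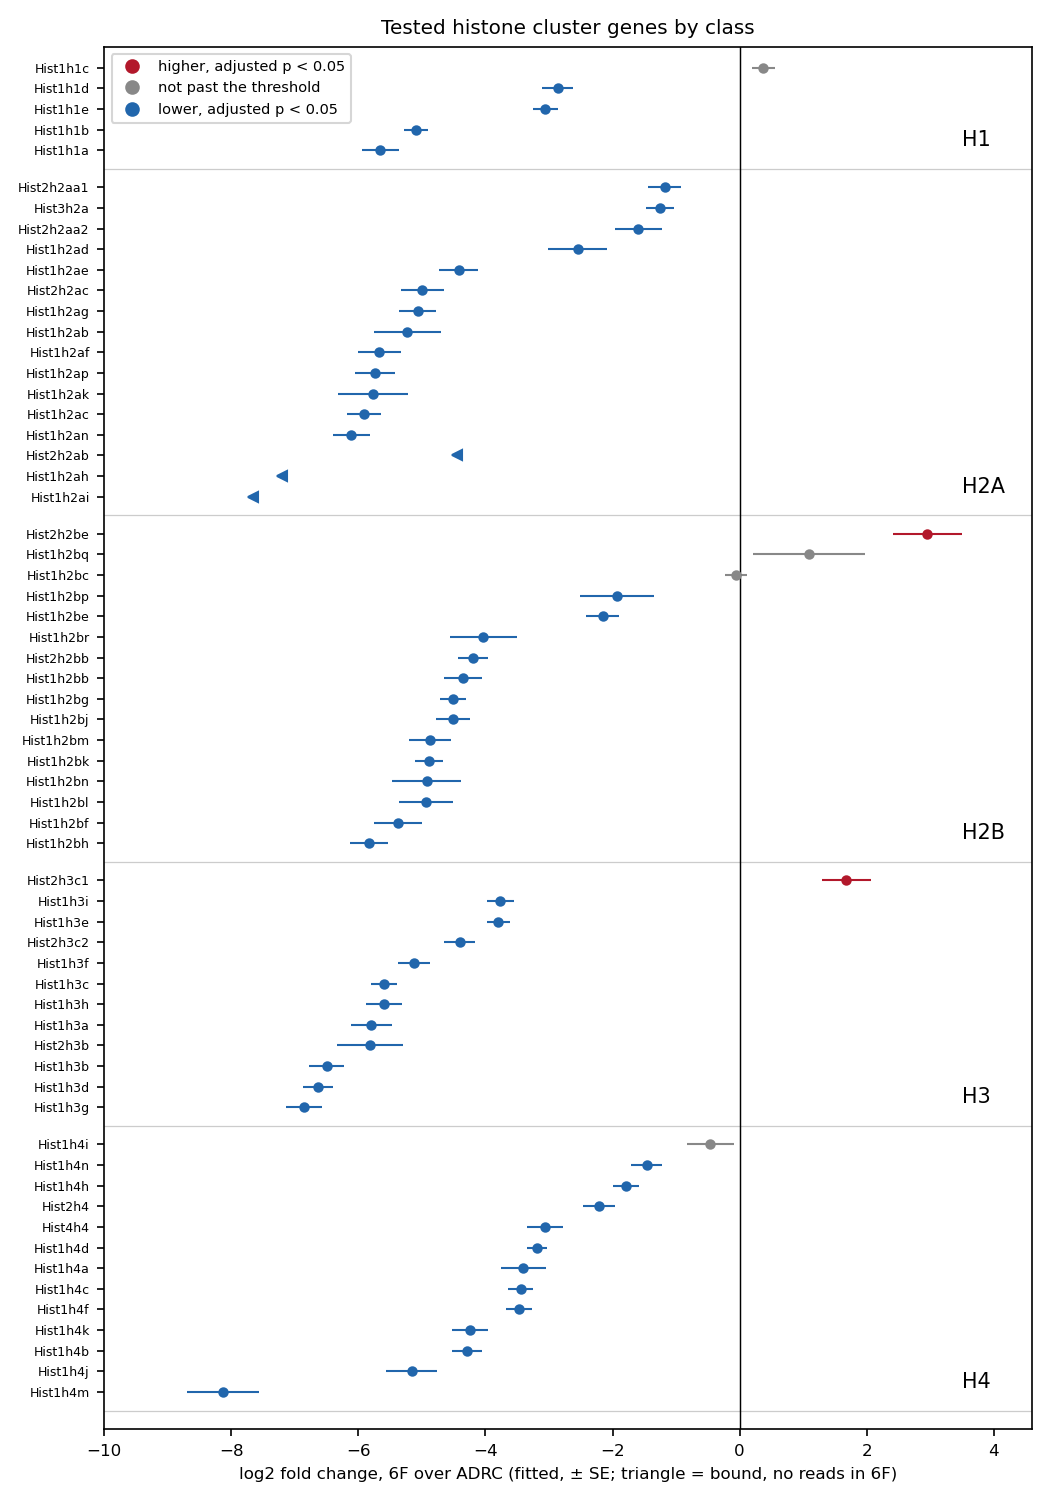
Fitted log2 fold change (6F over ADRC, x axis, ± SE) of the 62 tested histone cluster genes, grouped by class down the page, with triangles for bounds where 6F cells had no reads. Most members lie left of 0, with Hist2h2be and Hist2h3c1 to the right of it and past the threshold.

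The summed level differed between the groups in each class, by unlike amounts. H3 messages, which encode the core histone whose tail carries many regulatory marks, summed to 80.0 and 64.5 CPM in 6F cells and to 1727 and 1725 CPM in ADRCs, 23.9-fold lower. H2A summed to 186 ± 13.8 CPM in 6F cells and 1251 ± 1.49 CPM in ADRCs, 6.74-fold lower. H2B summed to 161 ± 3.62 CPM in 6F cells and 1004 ± 8.42 CPM in ADRCs, 6.25-fold lower, and H4 to 162 ± 1.06 CPM in 6F cells and 1076 ± 7.83 CPM in ADRCs, 6.62-fold lower. The H1 sum had the smallest ratio, with 338 ± 70.5 CPM in 6F cells against 880.1 ± 4.64 CPM in ADRCs (SD, n = 2 each throughout), 2.60-fold lower. In each class both 6F libraries were below both ADRC libraries. Without Hist1h1c the H1 sum was 11.6-fold lower in 6F cells. The copies Hist2h2aa1 and Hist2h2aa2 made up most of the H2A sum of 6F cells. The sums are descriptions and were not tested.

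**Figure D2:**
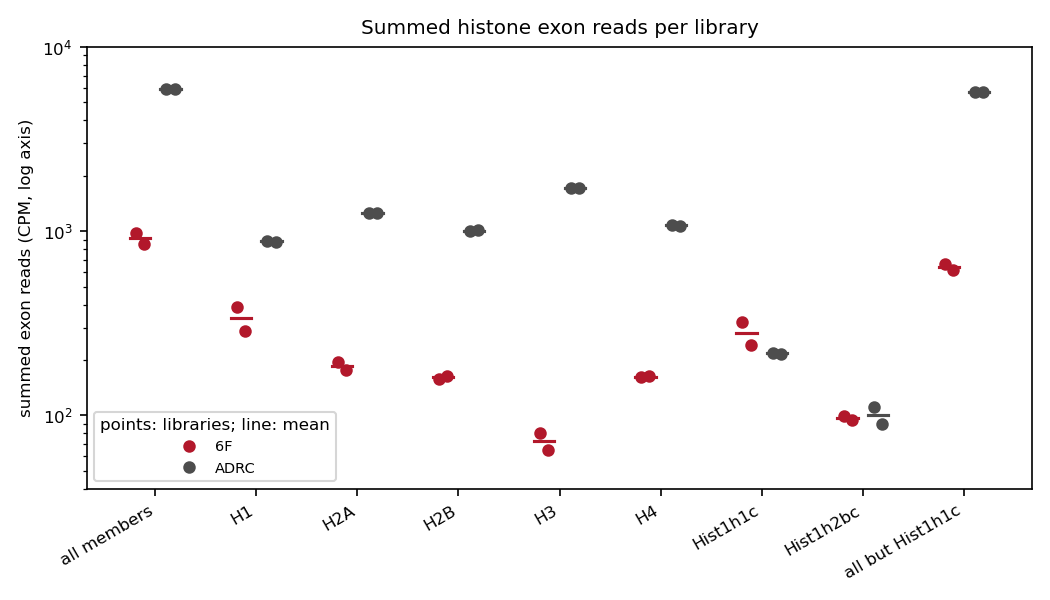
Summed exon reads in CPM (log axis) in each library for all 68 members, for each histone class, for Hist1h1c and Hist1h2bc alone and for all members but Hist1h1c. The 6F libraries lie below the ADRC libraries in each class sum, above them for Hist1h1c and among them for Hist1h2bc.

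The linker histone genes split into 4 that fell and 1 that did not pass the threshold. Hist1h1c, which encodes histone H1.2 (ENSMUSG00000036181; GRCm38 chr13:23738808-23740367, a single exon), had 321 and 241 CPM in 6F cells, against 219 and 216 CPM in ADRCs. Both 6F libraries were above both ADRC libraries, and the difference did not pass the threshold (log2 fold change 0.37 ± 0.18, SE, edgeR adjusted p = 0.139). It passed with scaling by library size alone, at 0.60 (edgeR adjusted p = 0.0366), a scaling that moved the median of all genes tested to 0.30. Without 6F library b, which leaves 1 6F library and no 6F spread, the log2 fold change was 0.59. Its share of all histone reads was 32.6% and 28.2% in 6F cells and 3.68% and 3.65% in ADRCs. Within the H1 class it held 82.7% and 83.5% of the reads in 6F cells and 24.7% in each ADRC library.

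The other H1 genes were lower. Hist1h1a, an S-phase linker histone, had 3.02 and 1.61 CPM in 6F cells against 119 and 118 CPM in ADRCs, a log2 fold change of -5.65 ± 0.29 (edgeR adjusted p = 0.000111). Hist1h1b stood at 4.22 and 4.43 CPM in 6F cells and 155 and 143 CPM in ADRCs (-5.10 ± 0.19, edgeR adjusted p = 0.000104). The falls of Hist1h1e and Hist1h1d were smaller, with log2 fold changes of -3.06 and -2.87. Hist1h1e had 30.2 and 22.4 CPM in 6F cells and 228 and 211 CPM in ADRCs, and Hist1h1d 29.2 and 18.8 CPM in 6F cells and 163 and 187 CPM in ADRCs. The groups did not overlap in any of these 4 genes. In GENCODE the Hist1h1e transcript of 1930 bases shares exon bases on its own strand with Hist1h2be. Only 748 bases were counted for Hist1h1e, so whether the counted exon holds these bases is not known.

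Of 19 H2A members 16 were tested, and all 16 were lower in 6F cells. Hist1h2ai had 0 reads in either 6F library and 80 and 96 in the ADRC libraries, at least 203-fold lower against a floor of 3 reads over the 6F group. Hist1h2ah, with 47 and 81 reads in ADRCs, was at least 148-fold lower, and Hist2h2ab, with 10 and 9, at least 21.9-fold lower. Hist1h2ap was the H2A gene with most reads summed over the ADRC libraries, 234 and 227 CPM (Hist2h2aa2 had more in library a), and had 2.90 and 5.77 CPM in 6F cells (log2 fold change -5.74 ± 0.31, edgeR adjusted p = 0.000128). Hist1h2an, Hist1h2ac, Hist1h2ak, Hist1h2af, Hist1h2ab, Hist1h2ag, Hist2h2ac and Hist1h2ae had log2 fold changes from -6.11 to -4.42, and each held less than 5 CPM in either 6F library.

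The H2A genes with the smallest falls were the copies Hist2h2aa1 and Hist2h2aa2, the gene Hist3h2a and the sparsely read Hist1h2ad. Hist2h2aa1 (chr3:96245497-96246082) had 70.1 and 85.2 CPM in 6F cells and 133 and 218 CPM in ADRCs, and Hist2h2aa2 (chr3:96239749-96240276) 97.2 and 47.5 CPM in 6F cells and 265 and 173 CPM in ADRCs. Every 50-base window of the Hist2h2aa2 transcript also occurs in Hist2h2aa1, so the single values are uncertain and their sum is the safer one. The sum was 167 and 133 CPM in 6F cells and 399 and 391 CPM in ADRCs, 2.63-fold lower. These copies made up most H2A reads of 6F cells, 35.9% and 48.5% for Hist2h2aa1 and 49.8% and 27.0% for Hist2h2aa2. The call of Hist2h2aa1 was lost without ADRC library b (log2 fold change -0.80, edgeR adjusted p = 0.114) and that of Hist2h2aa2 without ADRC library a (-1.29, edgeR adjusted p = 0.0897). Hist1h2ad, with 9 and 10 reads in 6F cells and 13 and 20 in ADRCs, lost its call without either ADRC library (edgeR adjusted p = 0.053 and 0.108).

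The H2B genes held the largest rise among the members. Hist2h2be (chr3:96221119-96223738), an H2B gene of the Hist2 cluster, had 60 and 76 reads in 6F cells and 3 and 2 in ADRCs, or 7.24 and 10.2 CPM against 1.44 and 0.809 CPM. The groups did not overlap, and 0% of the 50-base windows of its transcript occur in another gene of the table. Its log2 fold change was 2.95 ± 0.54 (edgeR adjusted p = 0.0062). It was under the filter's minimum in both ADRC libraries, so it was tested through its 6F reads only and its direction followed from that. Without ADRC library b, which leaves 1 ADRC library, the log2 fold change was 2.55 and the call was lost. Hist1h2bc (chr13:23684199-23692908) had 99.2 and 94.3 CPM in 6F cells and 111 and 90.2 CPM in ADRCs, which overlap (log2 fold change -0.06 ± 0.17, edgeR adjusted p = 0.801). It gave 62.7% and 57.8% of the H2B reads of 6F cells and 11.1% and 8.93% of those of ADRCs.

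Of the 16 tested H2B genes 13 were lower. Hist1h2bh fell furthest, with 7 and 5 reads in 6F cells and 97 and 106 in ADRCs (log2 fold change -5.83 ± 0.29, edgeR adjusted p = 0.000111). It was under the filter's minimum in both 6F libraries, so it was tested through its ADRC reads only. Hist1h2bg held most H2B reads in ADRCs, 166 CPM in each library, against 6.28 and 8.32 CPM in 6F cells (-4.50 ± 0.21, edgeR adjusted p = 0.000109). Hist1h2bf, Hist1h2bl, Hist1h2bn, Hist1h2bk, Hist1h2bm, Hist1h2bj, Hist1h2bb, Hist2h2bb and Hist1h2br had log2 fold changes from -5.37 to -4.03, all past the threshold. Hist1h2be fell by 2.16 and Hist1h2bp by 1.93, and the call of Hist1h2bp, which rests on 18 reads in 6F cells and 20 in ADRCs, was lost without 6F library b or either ADRC library. Hist1h2bq had 49 and 11 reads in 6F cells and 2 and 6 in ADRCs (1.09 ± 0.88, edgeR adjusted p = 0.344). Without 6F library b, which leaves 1 6F library, Hist1h2bq was at 1.76. Of its 50-base windows 97.3% also occur in its copy Hist1h2br, and summed over both there were 68 and 78 reads in 6F cells against 191 and 234 in ADRCs, 10.0-fold lower in CPM.

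Among the H3 genes 11 of 12 were lower and 1 was higher, with none left short of the threshold. Hist1h3g fell furthest, to 0.724 and 0.671 CPM in 6F cells, against 92.9 and 75.3 CPM in ADRCs (log2 fold change -6.86 ± 0.28, edgeR adjusted p = 0.000109). Hist1h3g was under the filter's minimum in both 6F libraries, so it was tested through its ADRC reads only. Hist1h3d (chr13:23575763-23577011), whose promoter is printed above, had 2.05 and 1.48 CPM in 6F cells and 189.7 and 169 CPM in ADRCs (-6.64 ± 0.24, edgeR adjusted p = 0.000104). Hist1h3b had 2.66 and 1.48 CPM in 6F cells and 182 and 200.3 CPM in ADRCs (-6.50 ± 0.28, edgeR adjusted p = 0.000109). In these genes the lower ADRC library stood at 75 CPM or more and neither 6F library reached 3 CPM.

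The other H3 genes of the Hist1 cluster were lower too, with log2 fold changes of -5.80 for Hist1h3a, -5.60 for Hist1h3h and Hist1h3c, and -5.13 for Hist1h3f. Hist1h3e stood at -3.80 and Hist1h3i at -3.77. Hist1h3e and Hist1h3i kept the most reads of these in 6F cells, with means of 10.04 and 7.35 CPM, against 139.7 and 100.5 CPM in ADRCs. In the Hist2 cluster, Hist2h3b fell to 1.09 and 4.96 CPM in 6F cells, against 166 and 171 CPM in ADRCs (-5.81 ± 0.52, edgeR adjusted p = 0.000533). Hist2h3c1 (chr3:96246685-96248509) had 199 and 122 reads in 6F cells and 9 and 20 in ADRCs, or 24.0 and 16.4 CPM against 4.33 and 8.09 CPM. Its log2 fold change was 1.68 ± 0.39 (edgeR adjusted p = 0.0139), and without ADRC library a it was 1.29 and not past the threshold (edgeR adjusted p = 0.0982). Of its 50-base windows 34.7% also occur in the copy Hist2h3c2, and its exons overlap the annotated gene Gm20634 on the same strand, so its single value is uncertain. Hist2h3c1 gave 30.0% and 25.4% of the H3 reads of 6F cells and 0.251% and 0.469% of those of ADRCs. Hist2h3c2 (chr3:96238108-96239127) had 153 and 90 reads in 6F cells and 671 and 810 in ADRCs (-4.41 ± 0.24, edgeR adjusted p = 0.000128). The copies Hist2h3b, Hist2h3c1 and Hist2h3c2 summed to 43.6 and 33.4 CPM in 6F cells and 493 and 507 CPM in ADRCs, 13.0-fold lower in 6F cells.

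Of the 13 H4 genes, which encode the most conserved core histone, 12 were lower. Hist1h4m, under the filter's minimum in both 6F libraries, was tested through its ADRC reads only. It had 0 and 5 reads in 6F cells and 181 and 260 in ADRCs (log2 fold change -8.13 ± 0.57, edgeR adjusted p = 0.000255), and 89.8% of its 50-base windows also occur in Hist1h4n. The single value of Hist1h4m is therefore uncertain. Hist1h4j had a log2 fold change of -5.16, Hist1h4b of -4.29 and Hist1h4k of -4.25, all past the threshold, with at most 3.76 CPM in either 6F library. Hist1h4f, Hist1h4c, Hist1h4a, Hist1h4d, Hist4h4 and Hist2h4 had log2 fold changes from -3.47 to -2.22, all past the threshold. Hist1h4d, for example, had 20.9 and 20.8 CPM in 6F cells and 191 CPM in each ADRC library (-3.19 ± 0.16, edgeR adjusted p = 0.000111). Hist1h4h and Hist1h4n kept the largest H4 levels in 6F cells. Hist1h4h stood at 56.7 and 40.4 CPM in 6F cells and 166 and 171 CPM in ADRCs (-1.79 ± 0.20, edgeR adjusted p = 0.00114), and Hist1h4n at 29.8 and 42.7 CPM in 6F cells and 114 and 85.4 CPM in ADRCs (-1.46 ± 0.24, edgeR adjusted p = 0.00446). Hist1h4i overlapped between the groups, with 11.3 and 6.98 CPM in 6F cells and 14.9 and 10.5 CPM in ADRCs (-0.46 ± 0.37, edgeR adjusted p = 0.346). Without 6F library a, which leaves 1 6F library, it was at -0.84.

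Scaled to exon length, the order of the members differed between the groups. In 6F cells the highest levels per kilobase of exon were those of Hist1h1c, with 206 and 154 CPM per kilobase, Hist2h2aa2, with 184 and 89.9, Hist2h2aa1, with 119.7 and 145, and Hist1h2bc, with 135 and 128. Hist2h2aa2 overlaps the other 3 and Hist2h2aa1 overlaps Hist1h2bc, while both Hist1h1c libraries lie above both libraries of Hist2h2aa1 and of Hist1h2bc. On the mean of the ADRC libraries Hist1h4d, with 485 CPM per kilobase in each, and Hist1h2ap, with 486 and 472, came first, although Hist2h2aa2 had 502 in ADRC library a. In that order Hist1h1c and Hist1h2bc ranked 36 and 37 of 68.

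Head-to-head H2A and H2B genes were compared because each pair shares 1 stretch of promoter. The annotation held 12 such pairs with 175 to 305 bases between the gene starts. In 8 of the 10 pairs with both genes tested, both were lower in 6F cells, where 90.3% of the 62 tested members were lower singly. The other pairs split: Hist2h2ac had a log2 fold change of -5.00 while Hist2h2be, 238 bases away on the other strand, stood at 2.95. Hist1h2ac had -5.91 while Hist1h2bc, 250 bases away, had -0.06. In counts, Hist2h2ac had 16 and 31 reads in 6F cells and 192 and 250 in ADRCs, and the reads of Hist2h2be given above ran the other way in the same libraries. Hist2h2be was tested through its 6F reads only, as given above. The library kit is not named as one that marks strand, so antisense reads cannot be told apart, and Hist2h2ac and 21 other members overlap exons annotated on the opposite strand.

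Near-identical copies make read assignment uncertain, so the sequence that each member shares with other genes was measured on GENCODE M21 transcripts. Each transcript was cut into windows of 50 bases, and a window counted as shared if it also occurred, on either strand, in another gene with an exon length in the deposited table. Over the 60 tested members with a transcript, the median was 53.0% of windows shared. At least 50% were shared in 31 members, 30 of them lower in 6F cells and 1 not past the threshold. Under 10% were shared in 7 members, of which 5 were lower, 1 was higher and 1 was not past the threshold, with a median log2 fold change of -2.87. These 7 were Hist1h1a, Hist1h1b, Hist1h1c, Hist1h1d, Hist2h2be, Hist2h4 and Hist4h4. The windows come from whole annotated transcripts, and in 20 of the 60 members no transcript had the exon length counted in the deposited table. For Hist1h1d the transcript has 7425 bases while 744 were counted, so its share over the counted exon may be higher.

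The most shared H2A, H2B, H3 and H4 genes came in groups of copies. Hist1h2ap shared 93.1% of its windows with Hist1h2ao, which had 0 reads, Hist1h3h and Hist1h3i shared 79.3% with each other, and Hist1h4n shared 83.2% with Hist1h4m. Hist1h4n held 29.8 and 42.7 CPM in 6F cells where Hist1h4m held 0 and 0.671 CPM, and both were lower than in ADRCs. Hist3h2a (chr11:58954685-58956830) had 123 and 144 reads in 6F cells and 88 and 97 in the shallower ADRC libraries, -1.26 ± 0.22 after scaling (edgeR adjusted p = 0.00526). Trim17, a gene outside the family on the same strand, overlaps its exons and holds 31.5% of its windows, so the value of Hist3h2a is uncertain. How the counting placed reads that match several genes is not given in the sources used here.

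**Figure D3:**
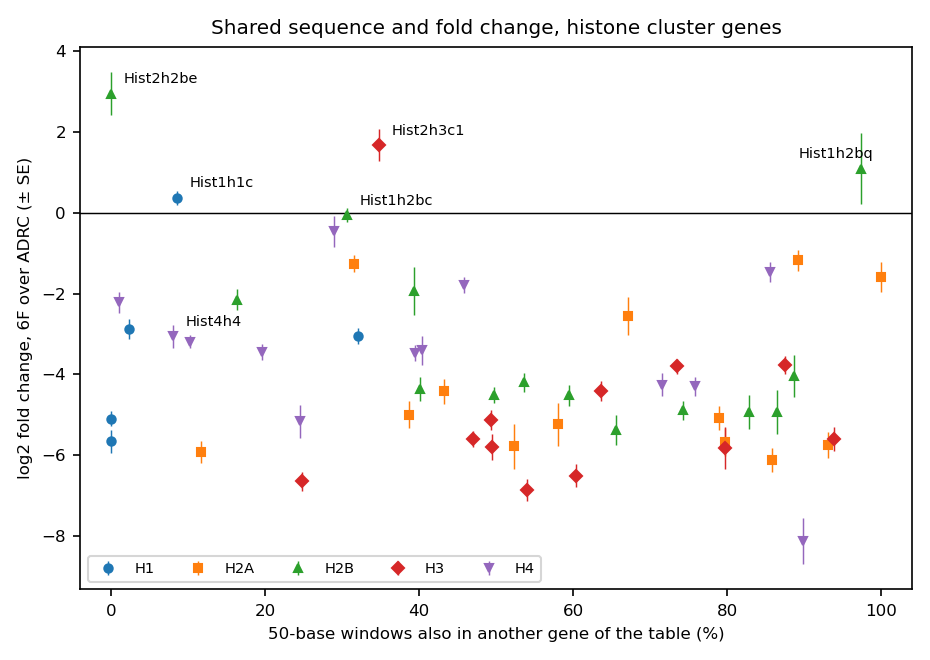
Log2 fold change (6F over ADRC, y axis, ± SE) of tested histone cluster genes with reads in both groups, against the percent of 50-base transcript windows that also occur in another gene of the deposited table (x axis), with symbols by class. Lower members are found from 0% to 100% shared, and Hist2h2be, the largest rise, lies at 0% and was tested through its 6F reads only.

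The length of transcript annotated beyond the stem-loop was set beside the fold changes. The comparison took the 18 tested members that hold the stem-loop letters and have a single annotated transcript, of the exon length in the deposited table. In 13 of them the transcript ended within 3 to 51 bases of the letters, and all 13 were lower, with a median log2 fold change of -5.07 and a range of -8.13 to -1.18. In the other 5 it ran on for 377 to 2445 bases, as in the longer, polyadenylated messages described for some histone genes. These were Hist1h1c, Hist2h3c2, Hist3h2a, Hist4h4 and Hist1h4j, of which 4 were lower, with a median of -3.06 and a range of -5.16 to 0.37. Hist2h3c1 was left out because it has a second annotated transcript. Its 1825-base transcript runs on for 1167 bases after the letters, and its log2 fold change was 1.68. Members whose transcripts differ from the counted exon length were left out too. Among them Hist1h2ac, with 2010 bases after the letters, was at -5.91, Hist1h1e, with 1153, at -3.06 and Hist1h1d, with 4884, at -2.87. Hist1h3d, with 752, and Hist1h4d, with 770, were lower as well. Hist1h4m, at -8.13 the low end of the first range, Hist2h3c2 and Hist3h2a are among the members that share sequence with other genes. The 13 members shared 39.5% (Hist1h4f) to 100% (Hist2h2aa2) of their windows with other genes, and the 5 shared 8.04% (Hist4h4) to 63.5% (Hist2h3c2). Shared sequence therefore went along with this split, and the part it had in the values was not tested. Over 59 tested members with reads in both groups, exon length and log2 fold change had a Pearson correlation of 0.61 (on log2 length) and a Spearman correlation of 0.42, across genes that share libraries and partly reads. The long genes went both ways: Hist2h2be, with 2620 bases of exon, and Hist2h3c1, with 1825, were higher, while Hist4h4, with 2863, Hist1h2be, with 2438, Hist1h2br, with 2212, and Hist3h2a, with 2146, were lower. Reads were counted over whole exons, so these files do not show which part of a transcript they came from.

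**Figure D4:**
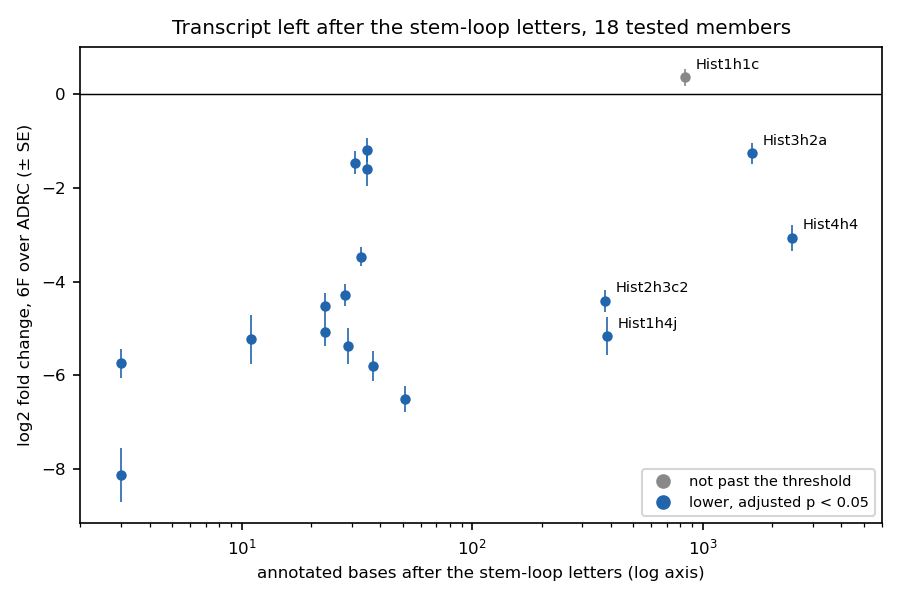
Log2 fold change (6F over ADRC, ± SE) of the 18 tested members with a single annotated transcript of the counted length, against the number of annotated bases after the stem-loop letters (log axis). The 13 members with 3 to 51 bases are all lower, and the 5 with 377 bases or more spread between -5.16 and 0.37.

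A list of 4 cluster genes described elsewhere as giving polyadenylated messages in differentiated cells did not move together. Hist2h2be was higher, Hist4h4 was lower and Hist1h1c and Hist1h2bc were not past the threshold, with a median log2 fold change of 0.16. Hist4h4 (chr6:136801553-136804415), with 8.04% of its windows shared, had 5.91 and 4.16 CPM in 6F cells and 37.1 and 47.3 CPM in ADRCs (-3.06 ± 0.28, edgeR adjusted p = 0.000579).

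Replacement histone variants were listed from separate genes outside the clusters. The median log2 fold change was -1.06 over the 11 variants tested, against -4.46 over the tested cluster genes. In 6F cells 6 were lower and 2 higher, where 22.8% of all genes tested were lower and 24.2% higher. H3f3a and H3f3b, which encode the replacement histone H3.3, had 313 ± 85.9 and 243 ± 24.2 CPM in 6F cells and 213 ± 2.76 and 232 ± 9.55 CPM in ADRCs, and neither passed the threshold (0.56 ± 0.21 and 0.07 ± 0.15, edgeR adjusted p = 0.072 and 0.721). H3f3a did pass, as higher, with library size scaling, with no filter on low counts and with thinned 6F libraries, at log2 fold changes of 0.60 to 0.79 (edgeR adjusted p from 0.0155 to 0.0361). With 1 6F library left out, a single 6F library remains and H3f3a was at 0.25 or 0.84. H1f0, the linker histone of non-dividing cells, had 153 ± 2.68 CPM in 6F cells and 84.6 ± 6.32 CPM in ADRCs (0.86 ± 0.15, edgeR adjusted p = 0.00535), and lost its call without either ADRC library (edgeR adjusted p = 0.0889 and 0.135). H2afv, named after its values were seen, was the other higher gene (0.83 ± 0.27, edgeR adjusted p = 0.0442). Cenpa, the centromeric H3, had 2.76 ± 0.835 CPM in 6F cells and 52.1 ± 0.482 CPM in ADRCs (-4.23 ± 0.28, edgeR adjusted p = 0.000193). H2afx, which marks broken DNA when phosphorylated, had 10.9 ± 0.0842 CPM in 6F cells and 168 ± 2.44 CPM in ADRCs (-3.94 ± 0.17, edgeR adjusted p = 0.000109). H2afz, the variant found at promoters, and H1fx, a linker variant, were lower too (-1.49 and -2.49, edgeR adjusted p = 0.00207 and 0.00344). Of the 11 genes 4 passed when ADRC library a was left out, where 17.9% of all genes tested passed, and 5 when ADRC library b was, where 17.3% did.

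Of 15 tested genes that make and process histone messages 8 were lower, against 22.8% of all genes tested, and 0 higher, against 24.2%, with a median log2 fold change of -0.75 (0.07 over all genes tested). Slbp, which binds the stem-loop, had 21.7 ± 3.15 CPM in 6F cells and 46.8 ± 6.04 CPM in ADRCs (-1.10 ± 0.21, edgeR adjusted p = 0.00723), and lost its call without ADRC library a (edgeR adjusted p = 0.0756). Npat, the coactivator of the histone genes, had 30.2 ± 1.17 CPM in 6F cells and 36.9 ± 3.87 CPM in ADRCs (-0.29 ± 0.19, edgeR adjusted p = 0.24). Cstf2, Srrt and Cpsf2, which act in 3′ end formation, were lower (-1.39, -1.37 and -1.25, edgeR adjusted p = 0.00495, 0.00116 and 0.0018). Eri1, a nuclease that trims histone messages, had 75.9 ± 23.1 CPM in 6F cells and 47.2 ± 0.742 CPM in ADRCs (0.68 ± 0.24, edgeR adjusted p = 0.0586). Like H3f3a, it passed as higher with library size scaling, no filter or thinned 6F libraries, at 0.72 to 0.92 (edgeR adjusted p from 0.0106 to 0.0225). With 1 6F library left out, a single 6F library remains and Eri1 was at 0.34 or 0.99. With 6F library b left out 14 genes of this list passed, where 70.7% of all genes tested did, against 3 with ADRC library a left out and 4 with ADRC library b left out, where the shares of all genes were the 17.9% and 17.3% given above.

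Histone chaperones carry new histones to DNA. Of 18 tested, 12 were lower, against 22.8% of all genes tested, and 1 was higher, against 24.2%, with a median log2 fold change of -0.81. The higher one was Atrx, named after its values were seen (0.77 ± 0.22, edgeR adjusted p = 0.0288). Asf1b had 1.07 ± 0.190 CPM in 6F cells and 31.1 ± 1.78 CPM in ADRCs (-4.82 ± 0.32, edgeR adjusted p = 0.000208). Chaf1a and Chaf1b, subunits of the replication-coupled chaperone CAF-1, were lower (-3.37 and -3.23, edgeR adjusted p = 0.000159 and 0.000625), as was Nasp, which carries H3 and H4 (-2.65, edgeR adjusted p = 0.000261). Ubn1, of the HIRA complex, and Rbbp7, a histone-binding subunit of several complexes, were not past the threshold, at -0.10 ± 0.15 and -0.012 ± 0.14 (edgeR adjusted p = 0.61 and 0.952). With ADRC library b left out, 8 genes of the list passed, against 17.3% of all genes tested.

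S phase genes, which the cell uses to copy its DNA, were lower in 19 of 20 cases and higher in 0, against 22.8% and 24.2% of all genes tested, with a median log2 fold change of -2.93. Ccna2, the cyclin of S phase, had 4.23 ± 1.03 CPM in 6F cells and 140 ± 1.94 CPM in ADRCs (-5.05 ± 0.23, edgeR adjusted p = 0.000109). Cdc6 and Mcm5, which load the replicative helicase, were lower (-4.71 and -4.42, edgeR adjusted p = 0.000319 and 0.000109), and so was Rrm2, a subunit of ribonucleotide reductase (-4.08, edgeR adjusted p = 0.000109). E2f1 was not past the threshold, with 22.3 ± 6.78 CPM in 6F cells and 32.1 ± 3.84 CPM in ADRCs (-0.53 ± 0.27, edgeR adjusted p = 0.154). Without 6F library b, which leaves 1 6F library, it was at -0.85.

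**Figure D5:**
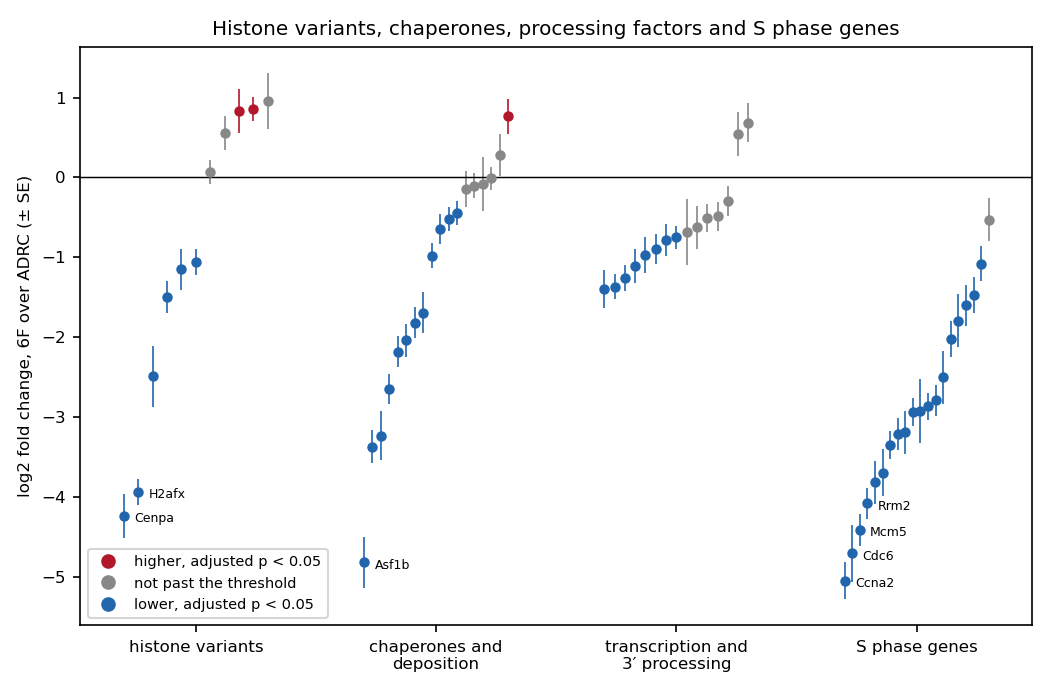
Log2 fold change (6F over ADRC, ± SE) of the tested replacement histone variants, chaperones, processing factors and S phase genes, each ordered by size. Of the S phase genes 19 of 20 lie below 0 past the threshold, against 8 of 15 processing factors.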

How the data were processed

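Deposited with the series was 1 table, whose headers give total exon reads for each of 4 libraries of 50600 genes. Per the file headers these are whole-number counts made by the authors, and an exon length in bases, another quantity deposited beside them, was used too. The table's 52 further columns of per-sample values, unique reads among them, were not used: a header names a group but no sample, so only 1 measure for each library was taken. The submitters' processing notes name the build GRCm38; no source used here names the aligner or counter.

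Counts were analysed with edgeR 4.0.16 in R 4.3.3 (filterByExpr, TMM, quasi-likelihood test, Benjamini-Hochberg adjustment, threshold 0.05), tested on simulated data. SE is the log2 fold change over the square root of F. Alternatives were DESeq2 1.42.0 size factors and Wald test, library size scaling, other filters, thinned 6F libraries and leaving out each library. Leaving out 3 genes that collect ribosomal reads was chosen after seeing the data, as was the search for shared windows. The members, the gene lists and the rule for named genes (all tested members, and from each list up to 4 called and 2 uncalled genes) were chosen with earlier results of these data known. Positions are 1-based from GENCODE M21, where 66 of 68 members were found. With 2 libraries a group that may share a culture, the p-values cover spread between libraries only.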

Additional observations from a re-analysis of the deposited data

How the results depend on the processing

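The number of lower histone genes lay between 52 and 57 under the alternatives run, against 56, and that of higher ones between 1 and 4, against 2: it was 4 without 6F library b, where Hist1h1c and Hist1h2bq were added, and 1 without either ADRC library. With 1 library left out, all genes called ranged from 2385 to 8572 (1220 to 4454 higher and 1165 to 4118 lower), against 5908, and the smaller counts came without an ADRC library. In these fits the lone library is assumed to vary like the others. Called list genes then ranged from 4 to 10 for replacement variants, 3 to 14 for processing factors, 8 to 14 for chaperones and 1 to 3 for the polyadenylated list. The log2 ratio of summed histone reads was -2.69, and -2.46 with library size scaling.

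Directions turned only near 0. Hist1h2bc was at 0.18 with library size scaling and from -0.22 to 0.071 with 1 library left out. Rbbp7 was at 0.22 with library size scaling, 0.040 without a filter, 0.014 with thinned libraries and from -0.057 to 0.068 with 1 library left out. Ubn1 was at 0.13 with library size scaling, and H3f3b ranged from -0.0065 to 0.18 with 1 library left out. The call of Hist1h2bp (adjusted p = 0.0342 in edgeR) was lost with library size scaling, both other filters and the Wald test. The cause of these changes was not tested. The alternative on unique exon reads was not run, since a header names no sample and only total exon reads were taken from each library. No paired analysis was possible because the columns carry no replicate numbers. Members with few reads, such as Hist1h2bp, Hist1h2ad and the ADRC side of Hist2h2be, are limited by depth.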
